A study of Mus musculus with 29 samples.

Results

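The Toll-like receptor family was followed through translating ribosome affinity purification RNA sequencing (TRAP-RNAseq) of mouse brain. The 10 genes were taken by symbol from the deposited matrix (Tlr1, Tlr2, Tlr3, Tlr4, Tlr5, Tlr6, Tlr7, Tlr8, Tlr9 and Tlr13) and make up 10 of its 36172 gene rows. All 10 had a row with counts in at least 1 of the 29 libraries. NuTRAP mice carry a Cre-dependent construct that puts an EGFP tag on a ribosomal protein, so that RNA on the ribosomes of the recombined cells can be pulled down with an antibody. In Aldh1l1-Cre/Ert2+; NuTRAP+ mice the recombined cells are astrocytes, and in Cx3cr1-Cre/Ert2+; NuTRAP+ mice they are microglia and other cells in which the Cx3cr1 promoter is active. All mice of both lines carried Cre and the construct, had received tamoxifen and were about 3 months old, and a single brain hemisphere of each entered the pulldown, with no other treatment.

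Groups are named by line and fraction. A Pos and A Neg are the bound and unbound RNA of 3 Aldh1l1-NuTRAP mice (mice 290, 293 and 294). C Pos, C Neg and C Input are the bound RNA, the unbound RNA and the cleared homogenate of 6 Cx3cr1-NuTRAP mice (mice 155, 192, 194, 209, 210 and 277), and C Slice is RNA isolated conventionally from whole brain tissue of 5 of these mice, all but mouse 155. The fractions of a mouse come from 1 animal, the mice are separate animals, and their sex is not in the labels. For the Aldh1l1-NuTRAP line, cleared homogenate and whole tissue were not analysed here.

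Library totals ranged from 4260949 counts, in C Slice of mouse 210, to 26857866, and the libraries of mouse 290 were the shallowest of the Aldh1l1-NuTRAP line (11910851 bound, 8782235 unbound). Levels are given as CPM, the raw count scaled to the library total, as mean ± SD over mice. A gene with 3 counts or fewer in every library of a group was treated as at the count floor there. The summed level of 14 microglia markers was 3800 to 9260 CPM in C Pos and 456 to 505 CPM in C Input, and that of 10 astrocyte markers was 16900 to 24700 CPM in A Pos and 3170 to 4070 CPM in A Neg. Of the markers of other cells, 6 of 10 astrocyte, 7 of 8 oligodendrocyte and 2 of 9 neuron markers were lower in C Pos than in C Input (median log2 fold changes of -0.39, -0.64 and -0.05). In that fit, which used the count filter described below, 25.6% of all genes were lower and 23.3% higher, so the neuron count was near the share of all genes. Of 8 endothelial markers 3 were higher (median 0.20), and 2 with no count filter. Against C Slice, 6 of these 8 were lower in C Pos and none higher (median -1.13), where 24.3% of all genes were lower. The part of these cells in the receptor values was not tested. In these bulk samples, fewer cells of a type and less RNA per cell cannot be told apart.

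Toll-like receptors are membrane proteins that recognise conserved molecules of microbes and of damaged cells. Some sit at the cell surface and bind lipids, lipoproteins or flagellin, whereas others sit in endosomes and bind nucleic acids. Most signal through the adaptor MyD88, Tlr3 signals through the adaptor TRIF (gene Ticam1) and Tlr4 uses both, and the pathways end in NF-kappa B and interferon regulatory factors. In the brain, microglia are known as the cells that carry most of these receptors.

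2 pairs of members are neighbours in the genome. Tlr1 (chr5:64924679-64933563) and Tlr6 (chr5:64952031-64960097) lie 18.5 kb apart on the minus strand, and Tlr8 (chrX:167242696-167264329) and Tlr7 (chrX:167304929-167330558) lie 40.6 kb apart on the minus strand (GENCODE coordinates on GRCm38, which is mm10). The other members are Tlr5 (chr1:182954788-182976044), Tlr2 (chr3:83836272-83841767), Tlr4 (chr4:66827584-66930284), Tlr3 (chr8:45395665-45411080), Tlr9 (chr9:106222598-106226883) and Tlr13 (chrX:106143204-106160493). None of the 10 overlaps another gene on its own strand. Tlr3 has 1 antisense gene on the other strand, and the alignment was directional.

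Transcript similarity decides which counts can be told apart. Paired reads of 50 bases that lose 2 and 6 bases to fixed trimming leave 42 bases each, and over all 66 pairs of the 10 members with Tlr11 and Tlr12, Tlr1 with Tlr6 was the 1 pair that shared any stretch of 42 bases in the longest annotated transcripts. They shared 509 such stretches, 17.1% of those of Tlr1 and 14% of those of Tlr6. The counts of Tlr1 and Tlr6 are therefore uncertain against each other. The longest identical run is 229 bases of coding sequence, positions 1468 to 1696 of the 2388 coding bases of Tlr1 and positions 1507 to 1735 of the 2421 coding bases of Tlr6, and is shown because a trimmed read within it fits both genes unless its mate lies outside:
Tlr1 and Tlr6: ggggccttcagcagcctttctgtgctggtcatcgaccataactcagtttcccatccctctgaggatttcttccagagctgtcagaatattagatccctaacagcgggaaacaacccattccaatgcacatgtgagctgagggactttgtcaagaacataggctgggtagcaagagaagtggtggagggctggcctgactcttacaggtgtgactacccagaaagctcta

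Promoters (250 bases before and 50 after a start) from RefSeq on GRCm38.p6 matched 8 of the 10 members, with 10 starts. Tlr4 and Tlr7 had no entry. They were searched on both strands for the ETS-type purine box GAGGAAGT, the kappa B element (GGG, any 2 bases, TTTCC) and the interferon-stimulated response element (GAAA, any 2 bases, GAAA). Of 32851 promoters of this length, 3.2%, 1.63% and 3.44% hold these letters. The TATA box TATAAA, which 13.6% hold, was searched too and was found in Tlr6 and Tlr8. The purine box was found in Tlr1, 23 bases before the start, and in Tlr9, from base 11 after the start on the reverse strand. The kappa B letters were found in Tlr3 and the response element in Tlr6, there as 2 overlapping matches. The 30 bases around each match are shown because they are the member promoters with any of the first 3 motifs, with the matched letters in capitals (Tlr1 at chr5:64933563-64933592, minus strand; Tlr9 at chr9:106222597-106222626, plus strand; Tlr3 at chr8:45410572-45410601, minus strand; Tlr6 at chr5:64959260-64959289, minus strand):
Tlr1: attaaatgttgGAGGAAGTaggagcttgaa
Tlr9: gtgaaagtgtcACTTCCTCaattctctgag
Tlr3: agttgtttctGGGAGTTTCCtgcttttgag
Tlr6: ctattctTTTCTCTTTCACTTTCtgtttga
A match is a description of letters and not of a bound site. The stretches of Tlr3 and Tlr9 overlap an annotated UTR in GENCODE.

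The question of the Cx3cr1-NuTRAP comparisons was which transcripts are enriched on the ribosomes of the tagged cells over the homogenate. With all 10 receptors in the fit and no count filter, 8 were higher in C Pos than in C Input at an edgeR adjusted p under 0.05 and none was lower, where 15.7% of the 21174 genes tested were called higher and 15.2% lower. The 8 were Tlr1, Tlr2, Tlr4, Tlr5, Tlr6, Tlr7, Tlr9 and Tlr13, and the C Pos libraries of all of them but Tlr5 lay above all C Input libraries. How many of all genes separate in this way was not counted. Tlr3 and Tlr8 were not called. The values given below come from the fit with the study's count filter (over 20 counts in every library of at least 1 group compared), in which 23.3% of 13838 genes were called higher and 25.6% lower. Tlr2, Tlr3, Tlr4, Tlr7 and Tlr13 passed the filter in both groups, Tlr1 and Tlr9 passed it through C Pos alone, the group in which they were high, and Tlr5, Tlr6 and Tlr8 did not pass it.

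**Figure D1:**
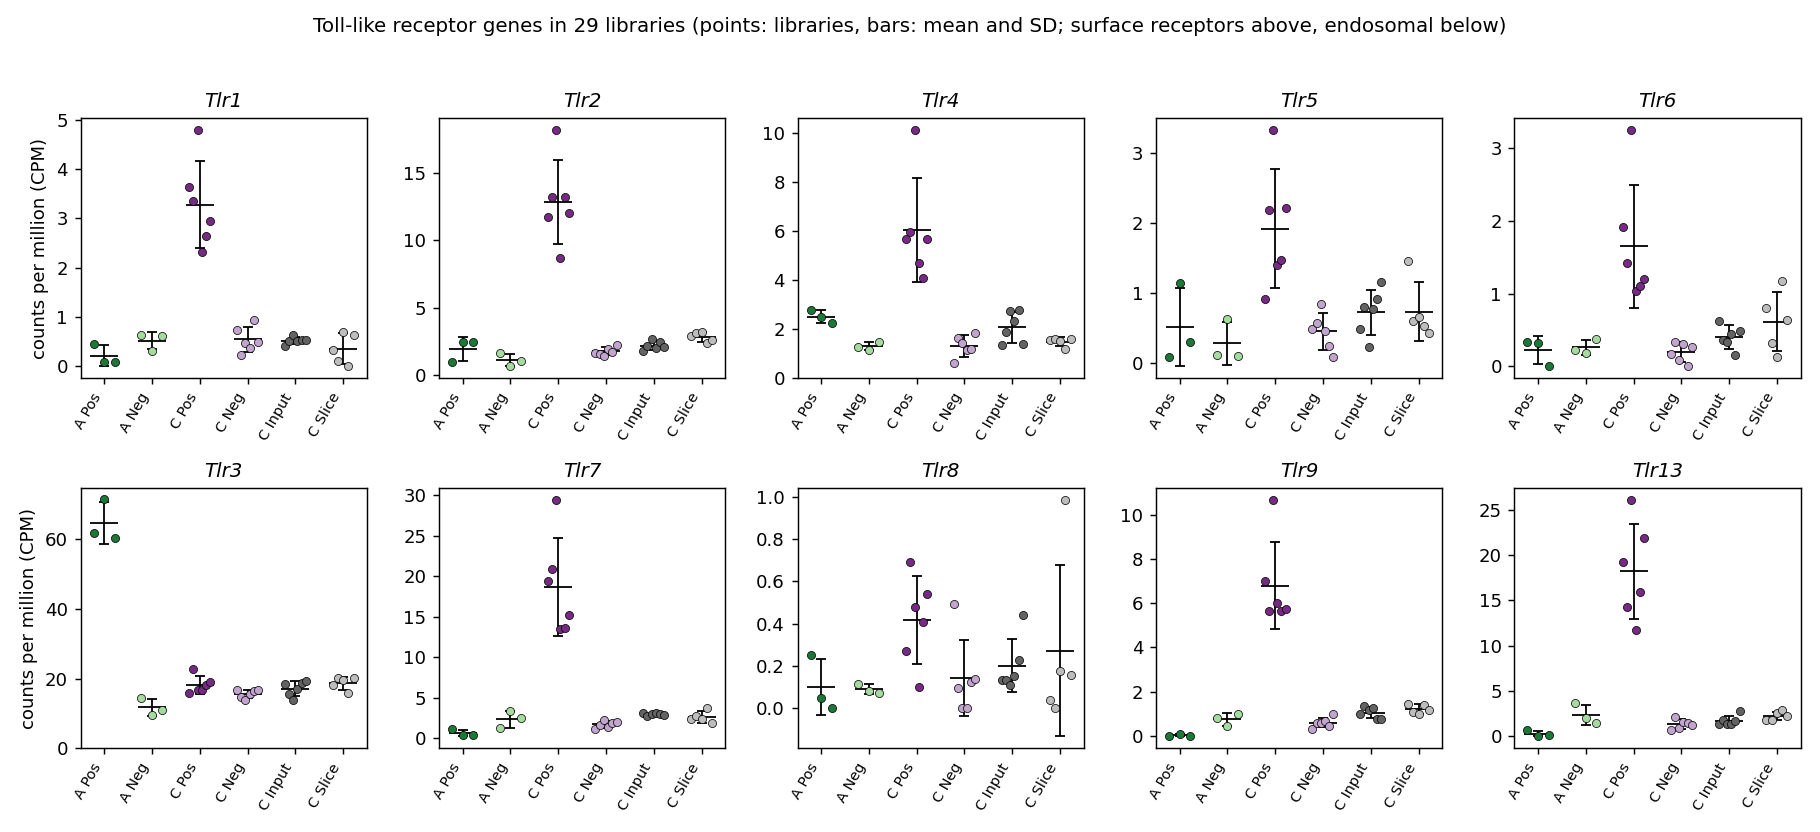
CPM of each receptor gene (y axis, linear, each panel with its own scale) in the 6 groups (x axis). Points are libraries and bars are the mean and SD. The 6 C Pos libraries of Tlr1, Tlr2, Tlr4, Tlr7, Tlr9 and Tlr13 lie above all other libraries, whereas Tlr3 is highest in the 3 A Pos libraries (60.5 to 71.5 CPM), and Tlr8 stays under 1 CPM throughout.

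Among the surface receptors, Tlr2, which recognises bacterial lipoproteins as a dimer with Tlr1 or Tlr6, had the highest level per kb of exon in C Pos (4.26 ± 1.03 CPM per kb). Its lowest, median and highest C Pos libraries stood at 8.65, 12.6 and 18.2 CPM, against 1.79, 2.10 and 2.65 CPM in C Input. The lowest library was that of mouse 209 and the highest that of mouse 194, and the groups did not overlap. The difference was 5.95-fold (log2 fold change 2.57, SE 0.17, edgeR adjusted p = 5.84e-08). C Neg held 1.75 ± 0.295 CPM and C Slice 2.82 ± 0.361 CPM (n = 6 and 5).

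Tlr4, the receptor for lipopolysaccharide, showed the smallest difference of the 6 members called in the filtered fit. Its C Pos libraries ran from 4.09 over a median of 5.66 to 10.1 CPM, and its C Input libraries from 1.34 over 2.10 to 2.76 CPM. The highest value, of mouse 194, stood apart from the other 5 (4.09 to 5.94 CPM). Its log2 fold change was 1.55 (SE 0.25, edgeR adjusted p = 0.000197). Tlr1, the partner of Tlr2 for triacylated lipopeptides, had 2.32, 3.16 and 4.8 CPM in the lowest, median and highest C Pos libraries and 0.403, 0.525 and 0.635 CPM in C Input. Its libraries did not overlap either, and its log2 fold change was 2.65 (SE 0.22, edgeR adjusted p = 4.07e-07).

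The remaining surface receptors were low. Tlr5, the flagellin receptor, had 0.917, 1.83 and 3.33 CPM as lowest, median and highest values in C Pos and 0.221, 0.786 and 1.15 CPM in C Input, and the groups overlapped. Tlr6, the partner of Tlr2 for diacylated lipopeptides, had 1.03, 1.31 and 3.25 CPM in C Pos and 0.151, 0.401 and 0.626 CPM in C Input, without overlap. Neither exceeded 20 counts in every library of any group, so that neither entered the filtered test. Without the count filter, the log2 fold changes were 1.41 for Tlr5 (SE 0.35, edgeR adjusted p = 0.00514) and 2.05 for Tlr6 (SE 0.37, edgeR adjusted p = 0.000358).

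Among the endosomal receptors, Tlr13, a mouse receptor for bacterial ribosomal RNA, differed most. Its C Pos libraries had 11.8, 17.6 and 26 CPM as lowest, median and highest values, and its C Input libraries had 1.34, 1.53 and 2.79 CPM. All 6 mice had a higher bound than input level, by 2.95 to 4.26 on the log2 scale. The fitted difference was 10.6-fold (log2 fold change 3.41, SE 0.23, edgeR adjusted p = 6.88e-08). Tlr7, the receptor for single-stranded RNA, had 13.4, 17.3 and 29.4 CPM in C Pos and 2.73, 3.01 and 3.07 CPM in C Input, so that its 6 C Input libraries lay within a narrow range (SD 0.142 CPM). It was 6.38-fold higher (log2 fold change 2.67, SE 0.19, edgeR adjusted p = 1.03e-07). Tlr9, which binds DNA with unmethylated CpG, had 5.65, 5.88 and 10.7 CPM in C Pos and 0.756, 1.07 and 1.33 CPM in C Input. Of its C Pos libraries 5 lay between 5.65 and 7.0 CPM, with mouse 194 above them. Its log2 fold change was 2.71 (SE 0.22, edgeR adjusted p = 2.72e-07).

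Tlr8, the neighbour of Tlr7 and a second receptor for single-stranded RNA, was near the count floor everywhere. It had 0.101, 0.443 and 0.694 CPM in C Pos, from 2 to 10.7 counts, and 0.111, 0.142 and 0.443 CPM in C Input. The ranges overlapped, and without the count filter it was not called (log2 fold change 1.08, SE 0.50, edgeR adjusted p = 0.113). A difference in Tlr8 was not detectable at this depth.

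Tlr3, which binds double-stranded RNA, had overlapping levels in all 4 fractions of the Cx3cr1-NuTRAP line. Its lowest, median and highest libraries were 15.8, 17.5 and 22.8 CPM in C Pos, 13.8, 17.7 and 19.3 CPM in C Input, 13.7, 16 and 16.7 CPM in C Neg, and 15.7, 19.5 and 20.2 CPM in C Slice. These ranges overlapped. The CPM was higher in bound than in input RNA in 2 of 6 mice, and the log2 fold change was 0.10 (SE 0.11, edgeR adjusted p = 0.459). The 10 astrocyte markers had a median log2 fold change of -0.39 in the same comparison, with 6 lower, and their part in the Tlr3 value was not tested.

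The receptors were also tested against the unbound RNA and against whole tissue, 2 comparisons that use the same C Pos libraries and are no independent check. With no count filter, 8 of the 10 receptors were higher and none lower against C Neg (7.44% and 6.17% of 21345 genes), and also against C Slice (16.3% and 15.7% of 21344 genes). With the filter, Tlr1, Tlr4, Tlr9 and Tlr13 entered the comparison with C Neg through C Pos alone. In the comparison with C Slice, Tlr1, Tlr2, Tlr4, Tlr7, Tlr9 and Tlr13 did so, and no count is drawn from those that passed. Tlr5, Tlr6 and Tlr8 entered neither comparison. Against C Neg (12.8% of 13776 genes called higher and 11.6% lower), the filtered fit gave log2 fold changes of 3.77 for Tlr13, 3.51 for Tlr9, 3.47 for Tlr7, 2.90 for Tlr2, 2.61 for Tlr1 and 2.22 for Tlr4. Against C Slice (27.5% of 13470 genes called higher and 24.3% lower), it gave log2 fold changes of 3.09 for Tlr13, 3.05 for Tlr1, 2.93 for Tlr7, 2.54 for Tlr9, 2.18 for Tlr2 and 2.01 for Tlr4. Tlr3 stood at 0.25 against C Neg (SE 0.10, edgeR adjusted p = 0.0865) and at -0.03 against C Slice (SE 0.11, edgeR adjusted p = 0.843). Without mouse 155, the Tlr3 difference against C Neg was called, at 0.30 (edgeR adjusted p = 0.0447).

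**Figure D2:**
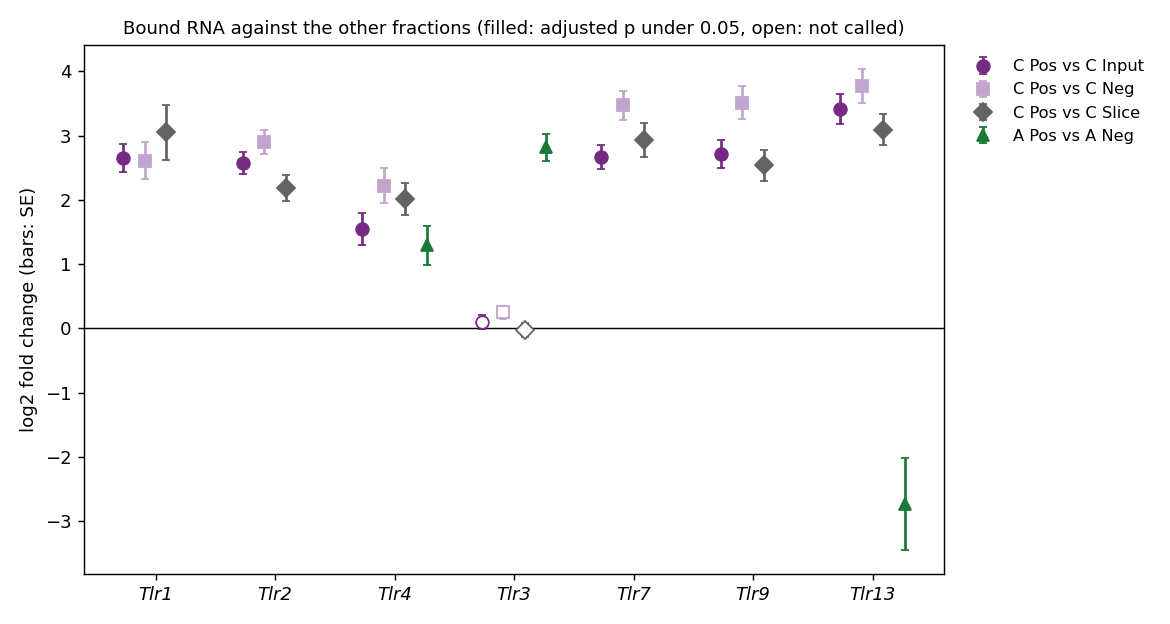
Fitted log2 fold change (y axis, bars are the SE) of the receptors that passed the count filter (x axis) in 4 comparisons of bound RNA, 7 in each of the 3 Cx3cr1-NuTRAP comparisons and 3 (Tlr3, Tlr4 and Tlr13) in the Aldh1l1-NuTRAP comparison. Filled points passed an adjusted p under 0.05 and open points did not. Tlr3 lies at 0.10, 0.25 and -0.03 in the 3 Cx3cr1-NuTRAP comparisons and at 2.82 in the Aldh1l1-NuTRAP comparison, and Tlr13 lies at 3.41, 3.77 and 3.09 against -2.73.

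Mouse 194 had the highest C Pos level for 8 of the 10 members, and mouse 192 for Tlr3 and Tlr8. The summed microglia markers were also highest in C Pos of mouse 194, at 9260 CPM against 3800 to 6010 CPM in the other 5, and 7 border macrophage markers summed to 248 CPM there against 75.1 to 109 CPM. All 14 microglia markers and all 7 border macrophage markers were called higher in C Pos than in C Input with no count filter (15.7% of all genes), with median log2 fold changes of 3.58 and 3.13. In the filtered fit, 4 of the 7 border macrophage markers passed through C Pos alone. The part of border macrophages in the receptor values was not tested. Monocyte and neutrophil markers summed to 1.27 to 4.87 CPM in C Pos and 1.91 to 3.99 CPM in C Input, with Ly6g, a defining neutrophil gene, at the count floor in both. Without mouse 194, Tlr1, Tlr2, Tlr4, Tlr7, Tlr9 and Tlr13 were still called against C Input.

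The receptors were also compared among the fractions that were not bound. C Neg against C Input called 1 of 5 receptors tested lower and none higher, where 4.7% of 13748 genes were called lower and 1.41% higher, and with no count filter 1 of 10, where 1.08% of 21155 genes were lower and 0.251% higher. It was Tlr7, with a log2 fold change of -0.77 (SE 0.15, edgeR adjusted p = 0.0271), from 1.15 to 2.22 CPM in C Neg against 2.73 to 3.07 CPM in C Input. These ranges did not overlap. The call was lost without any 1 of mice 192, 194, 209, 210 and 277 (edgeR adjusted p = 0.0762 to 0.161), fits in which 0 genes in the whole table were called lower, while the log2 fold change stayed between -0.86 and -0.68 with any 1 mouse left out. With the mouse as a replicate block, Tlr7 had an adjusted p of 0.00207 in edgeR, and Tlr4 was called lower as well, at -0.66 (adjusted p = 0.0261), as it was without mouse 155 and with no block (-0.61, adjusted p = 0.0389). In these 2 fits 19.5% and 14.8% of all genes tested were called lower. With all 6 mice, Tlr2, Tlr3 and Tlr7 passed the filter in both groups, and Tlr4 and Tlr13 through C Input alone, the group with the higher mean. Without mouse 155, Tlr4 passed it in both groups. With no count filter and all mice, Tlr4 was not called (-0.66, edgeR adjusted p = 0.147). C Input against C Slice called none of 5 receptors by edgeR (16.3% of 13608 genes higher and 14.2% lower), nor any of 10 with no count filter (10.2% of 21185 genes higher and 7.82% lower), with 1 of 5 at an unadjusted p under 0.05, and DESeq2 also called none. Without mouse 210, whose C Slice library is the shallowest, Tlr2 was called lower in C Input, at -0.48 (edgeR adjusted p = 0.0431).

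The Aldh1l1-NuTRAP comparison asked the same question of astrocytes, with the unbound RNA as the reference. With no count filter, 2 of the 10 receptors were higher in A Pos (Tlr3 and Tlr4) and 2 were lower (Tlr9 and Tlr13), where 17.7% of the 20657 genes tested were called higher and 15.4% lower. With the filter (26.8% higher and 24.8% lower of 13319 genes), Tlr3 passed in both groups, Tlr4 through A Pos alone and Tlr13 through A Neg alone, so that the direction of the last 2 is tied to the group that admitted them. Tlr3 stood at 61.8, 71.5 and 60.5 CPM in A Pos of mice 290, 293 and 294 and at 14.4, 9.59 and 11.1 CPM in A Neg. All 3 bound libraries lay above all unbound ones. The difference was 7.07-fold (log2 fold change 2.82, SE 0.21, edgeR adjusted p = 8.28e-05).

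Tlr4 was also higher on the astrocyte side. It had 2.77, 2.48 and 2.23 CPM in A Pos and 1.25, 1.15 and 1.47 CPM in A Neg, in the same order of mice, with no overlap. Its log2 fold change was 1.29 (SE 0.30, edgeR adjusted p = 0.00871). The call held without mouse 290 (1.16, edgeR adjusted p = 0.0152) and was lost without mouse 293 (1.19, edgeR adjusted p = 0.118) and without mouse 294 (1.48, edgeR adjusted p = 0.0703). The microglia markers went the other way in these libraries, with all 14 called lower in A Pos with no count filter (15.4% of all genes) and a median log2 fold change of -2.36. All 9 neuron and all 8 oligodendrocyte markers were lower as well (medians -1.57 and -2.87), and their part in the receptor values was not tested.

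Tlr13 had 0.672, 0.0952 and 0.179 CPM in A Pos, from 8, 2 and 4 counts, and 3.64, 2.07 and 1.52 CPM in A Neg. Its log2 fold change was -2.73 (SE 0.71, edgeR adjusted p = 0.0146), and this call too was lost without mouse 293 (-2.33, edgeR adjusted p = 0.0903) or mouse 294 (-2.65, edgeR adjusted p = 0.0736). Tlr9 was at the count floor in A Pos, with 0, 2 and 0 counts, and had 0.797, 0.438 and 0.991 CPM in A Neg, at least 4.21-fold higher than the mean floor of 3 counts per library. Tlr8 was at the floor in both A Pos and A Neg, with at most 3 counts in a library.

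Tlr2 and Tlr7 depended on mouse 290. Tlr2 had 0.923, 2.46 and 2.42 CPM in A Pos and 1.59, 0.676 and 1.05 CPM in A Neg, so that mouse 290 was lower in the bound RNA and the other 2 mice were higher. Tlr7 had 1.09, 0.381 and 0.410 CPM in A Pos and 1.25, 3.30 and 2.47 CPM in A Neg, with the smallest gap in mouse 290. Without the filter and with all 3 mice neither was called (Tlr2 1.26, edgeR adjusted p = 0.0796; Tlr7 -1.63, edgeR adjusted p = 0.0511), and without mouse 290 both passed the filter, Tlr2 through A Pos alone and Tlr7 through A Neg alone, the groups in which they were high, and were called (Tlr2 1.83, edgeR adjusted p = 0.00187; Tlr7 -2.56, edgeR adjusted p = 0.000378). Mouse 290 also had the most microglia marker signal in A Pos, 161 CPM against 77.6 and 85.2 CPM, the least astrocyte marker signal, 16900 CPM against 24700 and 23200 CPM, and the shallowest libraries. The part of these in the values was not tested. Tlr1, Tlr5 and Tlr6 were at most 1.14 CPM in every library of this line and had overlapping groups.

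Bound RNA of the lines was compared directly in A Pos and C Pos, where line and mice cannot be told apart. The study describes tissue collection a week after induction for cytometry of the Aldh1l1-NuTRAP line and some weeks later for the Cx3cr1-NuTRAP line, and an interval of that kind cannot be told apart from line either. With no count filter, Tlr3 was called higher in A Pos and 7 of the 10 receptors lower (20.6% and 21.5% of 21050 genes), namely Tlr1, Tlr2, Tlr4, Tlr6, Tlr7, Tlr9 and Tlr13. With the filter (30.6% and 33.1% of 13676 genes), Tlr3 and Tlr4 passed in both groups and the other 5 tested through C Pos alone. Tlr3 was 4.40-fold higher in A Pos (log2 fold change 2.14, SE 0.13, edgeR adjusted p = 2.07e-07). The log2 fold changes of the lower members were -5.76 for Tlr13, -4.71 for Tlr7, -3.76 for Tlr1, -2.38 for Tlr2 and -0.97 for Tlr4. Tlr9 was at least 38.5-fold higher in C Pos than the floor in A Pos. The Tlr4 call (SE 0.31, edgeR adjusted p = 0.0184) was lost without mouse 293 (adjusted p = 0.051) or mouse 294 (adjusted p = 0.0691). Scaling by library totals alone moved the median of all genes by -0.31 in this comparison and by -0.35 in A Pos against A Neg, on the log2 scale, and left all these directions in place.

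The difference between the lines in bound against unbound RNA was tested as an interaction. Positive values stand for a larger log2 ratio in the Cx3cr1-NuTRAP line. With no count filter, 6 of the 10 receptors were called positive and 1 negative (18% and 16.6% of 21684 genes). With the filter (29.9% and 25.5% of 13983 genes), the positive members were Tlr13 at 6.56 (SE 0.66, edgeR adjusted p = 1.46e-07), Tlr7 at 5.26 (SE 0.53, edgeR adjusted p = 1.65e-07), Tlr1 at 3.70 (SE 0.75, edgeR adjusted p = 0.000397), Tlr2 at 1.66 (SE 0.44, edgeR adjusted p = 0.00389; 1.08 without mouse 290, edgeR adjusted p = 0.0308) and Tlr9. Tlr1 and Tlr9 passed this filter through C Pos alone, the group in which they were high. With no filter, Tlr1 stood at 3.65 (edgeR adjusted p = 0.000349). The fitted value of Tlr9, 7.37 (SE 0.77), is no bound because A Pos is at the floor, and it ran from 6.34 to 10.66 with 1 mouse left out. Tlr3 was negative, at -2.54 (SE 0.19, edgeR adjusted p = 4.51e-09). Tlr4 differed less between the lines and was not called (0.99, SE 0.45, edgeR adjusted p = 0.0696).

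Levels of different genes were compared per kb of annotated exon (CPM per kb). In C Pos the order was Tlr7 at 4.57 ± 1.5, Tlr2 at 4.26 ± 1.03, Tlr13 at 4.23 ± 1.22, Tlr3 at 3.50 ± 0.485, Tlr9 at 1.95 ± 0.567, Tlr4 at 1.08 ± 0.381, Tlr1 at 0.981 ± 0.263, Tlr6 at 0.443 ± 0.227, Tlr5 at 0.401 ± 0.178 and Tlr8 at 0.116 ± 0.0581 CPM per kb (SD, n = 6). Each pair of neighbours in this order overlapped in range. In A Pos, Tlr3 stood at 12.4 ± 1.16 CPM per kb, followed by Tlr2 at 0.642 ± 0.291 and Tlr4 at 0.449 ± 0.0483 (SD, n = 3). Tlr3 did not overlap with Tlr2, whereas Tlr2 overlapped with Tlr4, and all other members were at 0.154 CPM per kb or less. In C Input, Tlr3 led at 3.29 ± 0.412, ahead of Tlr7 at 0.723 ± 0.0347 and Tlr2 at 0.723 ± 0.103 CPM per kb (SD, n = 6).

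As a share of the summed CPM per kb of the 10 receptors, Tlr3 made up 88.7% ± 0.269 in A Pos, 49.6% ± 3.46 in A Neg, 16.8% ± 3.71 in C Pos, 59.3% ± 3.50 in C Neg, 52.2% ± 3.97 in C Input and 52.7% ± 4.82 in C Slice. Its share was thus highest in the astrocyte pulldown and lowest in the microglia pulldown. The sum itself was 14 ± 1.33 CPM per kb in A Pos, 21.5 ± 4.90 in C Pos and 6.28 ± 0.426 in C Input. Without Tlr3 it was 1.59 ± 0.172 in A Pos, 18.0 ± 4.94 in C Pos and 2.99 ± 0.200 in C Input.

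**Figure D3:**
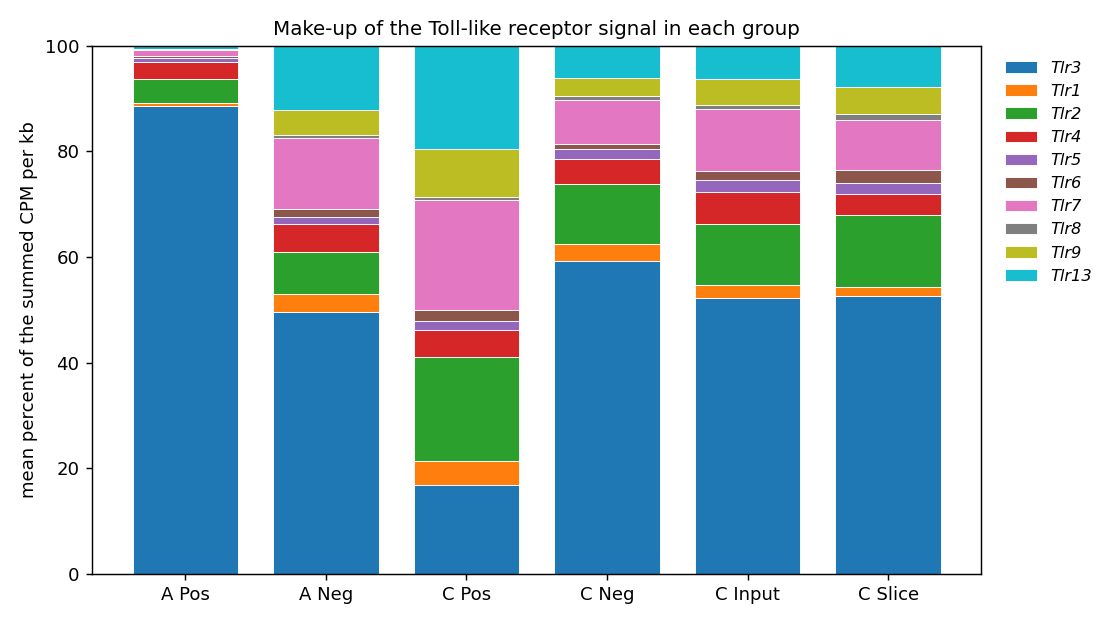
Mean share of each receptor gene (y axis, percent of the summed CPM per kb of the 10 genes) in the 6 groups (x axis). Tlr3 takes 88.7% in A Pos and 16.8% in C Pos, where Tlr7 takes 21.0% and Tlr2 19.8%.

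Across the 29 libraries, the log2 CPM of Tlr7, Tlr9 and Tlr13 ran together (Pearson r of 0.940 for Tlr7 with Tlr13, 0.931 for Tlr7 with Tlr9 and 0.919 for Tlr9 with Tlr13), and Tlr2 correlated at 0.785 to 0.832 with Tlr4, Tlr7, Tlr9 and Tlr13. Tlr3 correlated with the other members between -0.512 and 0.198. These values describe the 29 libraries, which share 9 mice and fall into groups, and carry no p. Of 14109 genes searched, those most like Tlr13 were Itgam, Mpeg1 and Ccl6 (0.971, 0.969 and 0.968), and those most like Tlr7 were Cd33, Nckap1l and Parvg (0.974, 0.970 and 0.970). For Tlr9 they were Abca9, Il6ra and Emr1 (0.969, 0.964 and 0.963), for Tlr2 Lcp1, Ctsc and Tln1 (0.952, 0.948 and 0.944), for Tlr1 Gngt2, Pck2 and Tbxas1 (0.914, 0.912 and 0.902), and for Tlr4 Scamp2, Rab3il1 and Ptgs1 (0.925, 0.900 and 0.897). For Tlr3 they were Ctso, Hsd17b4 and Lap3 (0.968, 0.957 and 0.954).

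The rest of the pathway was read from lists of genes that act with the receptors, given as counts over all listed genes with no count filter, beside the shares of all genes in those fits (15.7% higher and 15.2% lower in C Pos against C Input, 17.7% and 15.4% in A Pos against A Neg). Values of single genes come from the filtered fit. Co-receptors came first. Of 7, 5 were higher and 2 lower in C Pos than in C Input (median log2 fold change 1.75). Cd14, which hands lipopolysaccharide to Tlr4, had 17.8 to 43.3 CPM in C Pos and 1.32 to 2.82 CPM in C Input (log2 fold change 3.76, edgeR adjusted p = 7.5e-08). Ly86 and Cd180, which form a complex related to that of Tlr4 with Ly96, stood at 3.75 and 3.27. Ly96, the subunit of the Tlr4 complex that holds the lipid, was low, at 2.22 ± 0.784 CPM in C Pos and 0.704 ± 0.0979 CPM in C Input (log2 fold change 1.66, edgeR adjusted p = 9.1e-05), and passed the filter through C Pos alone.

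The co-receptor list split in the astrocyte pulldown. With no count filter, 2 of 7 were higher and 3 lower in A Pos than in A Neg. Tril, a leucine-rich repeat protein that assists Tlr4 and Tlr3, had 390 to 555 CPM in A Pos and 49.7 to 61.5 CPM in A Neg (log2 fold change 3.45, edgeR adjusted p = 4.16e-05). Cd14 and Ly86 were lower, at -2.70 and -2.35, and Cd180, at the count floor in A Pos, was at least 9.3-fold higher in A Neg than that floor. These 3 passed the filter through A Neg alone. In the interaction Tril stood at -3.93 (edgeR adjusted p = 4.95e-11) and Cd14 at 6.17 (edgeR adjusted p = 1.36e-08).

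Chaperones and processing enzymes serve the endosomal receptors. Of 8, 7 were higher and none lower in C Pos than in C Input (median log2 fold change 0.73). Unc93b1, which carries the nucleic acid receptors to endosomes, had 109 to 248 CPM in C Pos and 14.9 to 19.7 CPM in C Input (log2 fold change 3.21, edgeR adjusted p = 3.48e-08). Ctss and Lgmn, proteases of the endosome, stood at 3.73 and 1.93. In A Pos against A Neg, 3 were higher and 2 lower. Unc93b1 was lower, with 5.0 to 6.5 CPM in A Pos and 13.7 to 23.4 CPM in A Neg (log2 fold change -1.25, edgeR adjusted p = 0.00793), as was Ctss at -2.50, and Ctsl was higher at 1.52. Tlr3, a receptor that depends on Unc93b1, was higher in these same A Pos libraries.

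Adaptors differed between the lines by gene. Of 6, 3 were higher and 1 lower in C Pos than in C Input (median log2 fold change 0.77), and in A Pos against A Neg 3 of 6 were higher and none lower. Myd88 was higher in both, at 1.19 (edgeR adjusted p = 1.9e-05) and 1.38 (edgeR adjusted p = 0.00144), and its interaction was not called (-0.15, edgeR adjusted p = 0.63). Ticam1, the adaptor of Tlr3, stood at 0.16 in C Pos against C Input (edgeR adjusted p = 0.355), with 5.26 to 8.27 and 5.06 to 7.48 CPM. It was higher in A Pos than in A Neg, with 21.2 to 24.0 and 5.77 to 6.32 CPM (log2 fold change 2.25, edgeR adjusted p = 8e-05), and its interaction was -1.81 (edgeR adjusted p = 2.29e-06). Ticam2, which links Tlr4 to Ticam1, and Pik3ap1, an adaptor to phosphoinositide 3-kinase, were both 3.11 on the log2 scale higher in C Pos than in C Input. Ticam2 passed the filter through C Pos alone, and neither passed the filter in the astrocyte comparison.

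Of 17 kinases and ligases, 3 were higher and 4 lower in C Pos than in C Input, with a median log2 fold change of 0.06, near the shares of all genes. The largest were Irak4, the kinase that starts the Myd88 branch, at 1.33, Ripk1 at 0.70 and Traf6, a ubiquitin ligase, at -0.68. In A Pos against A Neg, 5 of 17 were higher and 2 lower (median 0.36). Irak2, a kinase downstream of Irak4, had 67.2 to 114 CPM in A Pos and 20.4 to 22.2 CPM in A Neg (log2 fold change 2.49, edgeR adjusted p = 0.000136), against 25.0 to 29.4 CPM in C Pos and 22.5 to 27.1 CPM in C Input. Its interaction was -2.24 (edgeR adjusted p = 1.73e-08). Irak4 and Ripk1 stood at 1.54 and 1.52 in the astrocyte comparison, and neither differed between the lines by the interaction (0.08 and -0.60, edgeR adjusted p = 0.889 and 0.162).

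Of 9 transcription factors, 7 were higher and none lower in C Pos than in C Input (median log2 fold change 0.89). Irf5 and Irf8, interferon regulatory factors, stood at 3.31 and 3.30, with Irf8 at 37.5 to 74.0 CPM in C Pos and 4.0 to 6.08 CPM in C Input, and Nfkb2 stood at 1.09. In A Pos against A Neg, 4 of 9 were higher and 2 lower. The 2 lower were Irf5 at -1.80 and Irf8 at -1.52, which passed the filter through A Neg alone, while Nfkb2 was higher at 1.70. The interaction was called for Irf5 (5.40, edgeR adjusted p = 3.07e-09) and Irf8 (4.79, edgeR adjusted p = 9.37e-10) and not for Nfkb2 (-0.45, edgeR adjusted p = 0.115).

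Of 10 inhibitors, 3 were higher and none lower in C Pos than in C Input (median 0.20). They were Il1rl1 at 2.83, which had 3.41 ± 1.29 CPM in C Pos and passed the filter through it alone, and Tnfaip3 and Nfkbia, feedback inhibitors of NF-kappa B, at 0.70 and 0.47. In A Pos against A Neg, 2 of 10 were higher and 2 lower, near the shares of all genes. In the filtered fit Tnfaip3 was lower (-1.35, edgeR adjusted p = 0.00786), having passed through A Neg alone, and Socs1, which passed through A Pos alone, and Nfkbia were higher, at 1.31 and 1.26. Irak3, an inhibitor of the Irak kinases, had 1.54 ± 0.651 CPM in C Pos and 1.46 ± 0.42 CPM in C Input and did not pass the count filter. Of 11 target cytokines, 6 were higher and none lower in C Pos than in C Input, and 1 was higher in A Pos than in A Neg. Most had few counts. Tnf, Il12b and Ifnb1 were at the count floor in C Input, and Il12b and Ifnb1 in C Pos as well. In A Pos, Tnf, Il1a, Il1b, Il6, Il12b, Ifnb1, Ccl3, Ccl4 and Ccl5 were at the floor. In the filtered fit only Il1a was tested, which passed through C Pos alone, with 1.16 to 4.21 CPM against 0.111 to 0.581 CPM (log2 fold change 2.59). None passed the filter in A Pos against A Neg.

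**Figure D4:**
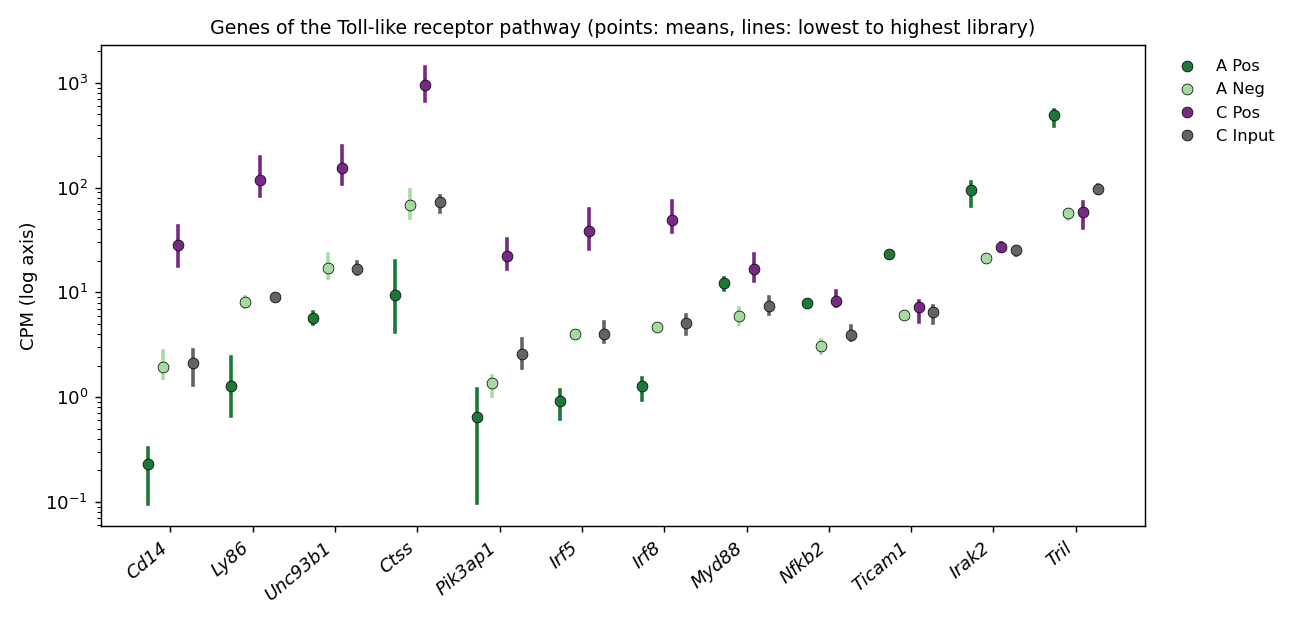
CPM (y axis, log axis) of 12 genes that act with the Toll-like receptors (x axis) in A Pos, A Neg, C Pos and C Input. Points are means and lines run from the lowest to the highest library. Cd14, Ly86, Unc93b1, Ctss, Pik3ap1, Irf5 and Irf8 are highest in C Pos, Ticam1, Irak2 and Tril are highest in A Pos, and Myd88 and Nfkb2 are raised in both.

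The other mouse Toll-like receptors were read from the same table. Tlr11 had 0 counts in all 29 libraries. Tlr12 had 4.00, 6.22 and 9.18 CPM as lowest, median and highest C Pos libraries and 0.716 to 1.38 CPM in C Input, passed the filter through C Pos alone, and was 6.76-fold higher (log2 fold change 2.76, SE 0.23, edgeR adjusted p = 3.57e-07).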

How the data were processed

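TRAP-RNAseq libraries (29, poly(A) RNA, strand-specific) were read from the single deposited table. The authors trimmed the reads, aligned them directionally to mm10 and assigned them to genes in Strand NGS, and the raw columns are expected counts per gene. Of the nonzero values 82.4% are not whole (tolerance 1e-06), and counts were rounded for tests. The deposited log2 columns, which the authors made by DESeq normalization, were not used. 0 columns of values lacked a sample, and samples were grouped by their titles. No 2 libraries were identical.

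The members and all gene lists, tests and motifs were chosen with earlier results of these data known. Genes over 20 counts in every library of at least 1 group compared were tested with edgeR 4.0.16 (R 4.3.3, TMM scaling, robust quasi-likelihood test, two-sided, Benjamini-Hochberg over all genes tested, threshold 0.05), checked on simulated counts. Alternatives were other scalings, no filter, DESeq2 1.42.0, all groups in 1 fit, a replicate block for the mouse, and each mouse left out. Counts of called members are led by the fit with no count filter, a choice made after seeing the data, since some members passed the filter through 1 group alone. CPM used unrounded counts over library totals. Per-kb levels used the union of exons in GENCODE. Floors (3 counts) and bounds cover counting error only. Named pathway genes are the up to 3 largest changes among calls per list in C Pos against C Input and in A Pos against A Neg, plus Cd14, Ly96, Cd180, Unc93b1, Myd88, Ticam1 and Irak3. Those most like a member are the 3 highest Pearson correlations of log2 CPM (prior count 2).

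Fractions with the same number come from the same mouse. Deviations from group means correlated at over 0.1 in 3 of 3 A Pos and A Neg pairs, 5 of 6 C Neg and C Input pairs, 3 of 6 C Pos and C Input pairs, 3 of 6 C Pos and C Neg pairs, and 0 of 5 pairs with C Slice in either comparison.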

Additional observations from a re-analysis of the deposited data

Results flagged for a closer look

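The interaction of line and fraction was taken as the log2 ratio of bound to unbound RNA in the Cx3cr1-NuTRAP line minus that in the Aldh1l1-NuTRAP line. With no count filter, edgeR called it positive for 6 of the 10 members and negative for 1 (18% and 16.6% of 21684 genes). Tlr6, at 3.05 (edgeR adjusted p = 0.0325), was tested only there. In the filtered fit (29.9% of all genes positive and 25.5% negative), Tlr1 and Tlr9 had entered through C Pos alone, the group in which they were high. The filtered values were 3.70 for Tlr1, 1.66 for Tlr2, -2.54 for Tlr3, 5.26 for Tlr7, 6.56 for Tlr13 and 7.37 for Tlr9, the last fitted against an A Pos group at the count floor and running from 6.34 to 10.66 with 1 mouse left out. That of Tlr2 was 1.08 without mouse 290.

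In the groups of 5 or 6 libraries, 8 of 40 combinations of a member and a group had 1 library far from the others by Dixon's criterion at the 95% level, which chance alone reaches in about 1 of 20 groups. Mouse 194 in C Pos had 10.1 CPM of Tlr4, against 4.09 to 5.94 CPM in the other 5 mice, and 10.7 CPM of Tlr9, against 5.65 to 7.0 CPM. Mouse 277 in C Input had 2.79 CPM of Tlr13, against 1.34 to 1.78 CPM, and 0.443 CPM of Tlr8, against 0.111 to 0.227 CPM. Mouse 155 in C Neg had 0.492 CPM of Tlr8, from 9 counts, against 0 to 0.135 CPM. In C Slice, mouse 192 had 1.46 CPM of Tlr5, against 0.421 to 0.660 CPM, and mouse 210, the shallowest library, had 0.986 CPM of Tlr8 from 4.2 counts and 1.17 CPM of Tlr4 from 5 counts, against 0 to 0.176 and 1.5 to 1.6 CPM.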

How the results depend on the processing

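Of 487 alternative values of the member differences reported above, 470 kept their direction and their side of the threshold, 12 lost the call, 2 gained it (Tlr3 in C Pos against C Neg without mouse 155, and the interaction of Tlr4) and 3 changed sign. Not among the 487 are 3 calls gained by members reported only for that reason, Tlr4 in C Neg against C Input (in 2 fits) and Tlr2 in C Input against C Slice. The sign changes all concern Tlr3 in C Pos against C Slice, which was never called: it was 0 with the replicate block, 0.01 without mouse 194 and 0.01 without mouse 209, and it ranged from -0.1 to 0.01 over the mice left out. Of 194 counts of called members, 179 stayed within 1.5 times. In A Pos against A Neg, 2 members were called lower without a count filter (Tlr13 and Tlr9), and with each mouse left out the counts ranged from 1 to 3 higher and from 0 to 2 lower. In C Neg against C Input, 2 were lower with the replicate block and 0 with all groups in 1 fit, and leaving out each mouse gave 0 to 2 lower. In C Input against C Slice it gave 0 to 1 lower. The cause was not tested. The interaction of Tlr4 was called with library totals alone, at 1.26 (edgeR adjusted p = 0.0196). The replicate block, paired by mouse and without mouse 155 in comparisons with C Slice, changed no other call of a member tested in both fits. Tlr5, outside the count filter, passed it there through C Pos alone and was called higher in C Pos than in C Slice (1.60, edgeR adjusted p = 0.0119). No paired analysis was possible for A Pos against C Pos because the lines share no mouse, and the interaction has no fit with further groups to set beside it. Depth limits the members with few counts: Tlr8 never exceeded 10.7 counts in a library, Tlr5 and Tlr6 had 20 or fewer in at least 1 library of every group, and so did most members in A Pos. With the longest transcript as the length, Tlr13 (4.48 CPM per kb) came before Tlr2 (4.26) and Tlr5 (0.503) before Tlr6 (0.449) in C Pos.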
